A study of Mus musculus with 8 samples.

Results

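The nuclear genes for the proteins of the mitochondrial ribosome were measured in growth plate cartilage of Cre and CreTW mice. They were taken by symbol, as every gene whose RefSeq transcript had a probe and whose symbol was Mrpl (large subunit) or Mrps (small subunit) followed by a number. Probes on the arrays represented 78 such genes. Of these, 77 were well above background by the scanner software's own call on at least 4 of 8 arrays, 48 of the large and 29 of the small subunit, among 23105 features measured in all. All 77 met that call on all 8 arrays with the probe used, which was the brightest of the gene. The remaining gene, Mrpl35, was above background on 1 array alone, CreTW replicate 3, where it lay at -2.98 on the log2 scale used below, with the other 7 arrays between -5.17 and -3.82. No gene of the set fell just inside or just outside the limit of 4 arrays.

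The mitochondrial ribosome translates the few proteins that mitochondrial DNA encodes, all of them core subunits of the respiratory chain and of ATP synthase. Its RNAs come from mitochondrial DNA, whereas all of its proteins are made in the cytosol from nuclear genes and imported. Part of its proteins have counterparts in bacterial ribosomes, and the rest were added in the mitochondrial lineage. In growth plates, chondrocytes work in poorly perfused tissue and are known for a strongly glycolytic metabolism.

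The 8 mice were littermates aged 12 days, 4 labelled Cre and 4 labelled CreTW, and each array held total RNA of the femoral growth plate of 1 mouse, so p-values measure the spread between mice, each seen on 1 array. The genotypes are given in the labels by these short names alone. What is known of the model, given here as background, is that in both groups Cre recombinase is made in cartilage. CreTW animals also make a mutant Twinkle there, a defective form of the helicase that unwinds mitochondrial DNA for its replication. The recombinase is therefore common to both groups and its own effect is not seen in this comparison. On single arrays 45.4% to 57.9% of 56605 probes passed the background call, the 75th percentile of the signal lay between 144 and 187 scanner units, and 0 spots were saturated. All 10 chondrocyte markers, Col2a1 and Acan among them, were above background on all 8 arrays. In such bulk RNA, fewer cells of a type and less RNA per cell cannot be told apart.

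The promoters of these genes are shown first because the choice by symbol did not use them. RefSeq's promoter table for build GRCm38.p6, which reaches from 250 bases before to 50 bases after the transcript start, held 69 of the 78 genes. Of these 69 promoters, 36.2% held the core of the ETS factors' site, CCGGAAG, against 11.9% of 17492 promoters of protein-coding genes. The site of NRF1 (GCGCA, any base and GCGC) stood in 18.8% against 6.6%, and the YY1 motif AAGATGGC in 17.4% against 3.22%. The ETS factor GABP, NRF1 and YY1 are known activators of nuclear genes for mitochondrial proteins. The SP1 motif GGGCGG (49.3% against 46.3%) and the CCAAT box (39.1% against 39%) were about as frequent as in all promoters, and TATAAA was found in 5.8% against 13.3%. The C/EBP-ATF element TGATGCAA, a form of the site bound by ATF4, was found in 0 of 69 windows and in 0.909% of all promoters, which says only that these letters are absent from these windows. Both strands were searched, and a match is a description of the sequence and not a bound site. The promoters also held more CpG, a median of 21 per window against 13, at a GC content of 58.3% against 56.3%. The comparison took all protein-coding genes in the table, measured here or not, and was not matched for CpG.

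The 250 bases before the start are printed for 4 genes, each 5′ to 3′ on the gene's own strand. Mrps36 and Mrps30 are shown because their values were the only ones that separated the genotypes, Mrpl12 as an example with the NRF1 motif and Mrps18a as one with the ETS core. The stretches are chr13:100744660-100744909 (minus strand) for Mrps36, chr13:118387253-118387502 (minus strand) for Mrps30, chr11:120484387-120484636 (plus strand) for Mrpl12 and chr17:46110754-46111003 (plus strand) for Mrps18a. Capitals mark the motifs named above. In Mrps36 they are a CCAAT box read on the opposite strand and 2 overlapping SP1 motifs, in Mrps30 2 CCAAT boxes on the opposite strand, in Mrpl12 1 NRF1 motif read on the opposite strand and in Mrps18a a CCAAT box and the ETS core.
Mrps36: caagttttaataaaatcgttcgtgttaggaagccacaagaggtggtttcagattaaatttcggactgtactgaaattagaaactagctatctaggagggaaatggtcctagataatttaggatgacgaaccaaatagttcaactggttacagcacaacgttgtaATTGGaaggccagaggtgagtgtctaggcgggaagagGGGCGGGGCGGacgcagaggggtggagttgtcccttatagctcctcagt
Mrps30: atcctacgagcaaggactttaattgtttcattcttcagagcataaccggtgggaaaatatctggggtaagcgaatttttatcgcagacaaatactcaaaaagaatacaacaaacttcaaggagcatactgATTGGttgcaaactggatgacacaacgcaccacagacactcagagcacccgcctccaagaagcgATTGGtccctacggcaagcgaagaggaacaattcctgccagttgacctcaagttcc
Mrpl12: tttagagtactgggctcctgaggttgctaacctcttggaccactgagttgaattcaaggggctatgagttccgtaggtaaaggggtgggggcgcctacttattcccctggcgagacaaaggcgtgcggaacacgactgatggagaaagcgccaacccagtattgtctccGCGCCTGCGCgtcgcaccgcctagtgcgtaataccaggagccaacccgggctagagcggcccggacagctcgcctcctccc
Mrps18a: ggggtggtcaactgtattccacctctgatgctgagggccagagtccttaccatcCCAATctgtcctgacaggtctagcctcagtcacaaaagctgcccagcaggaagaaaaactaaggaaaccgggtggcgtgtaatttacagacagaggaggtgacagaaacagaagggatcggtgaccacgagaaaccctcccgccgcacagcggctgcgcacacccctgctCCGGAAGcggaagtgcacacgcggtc

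The comparison asked whether CreTW cartilage held more or less of these transcripts than Cre cartilage. None of the 77 genes passed the test, 0 higher and 0 lower, where 0.346% of all features did (limma, Benjamini-Hochberg adjusted p under 0.05 over 23105 features), and the lowest adjusted p among them was 0.292, for Mrps36. Levels are given on a log2 scale relative to the 75th percentile of signals on the same array, and differences as CreTW minus Cre on that scale with the SE, n = 4 arrays per genotype. The differences ran from -0.30 for Mrpl1 to 0.20 for Mrps30, with a median of -0.033 against -0.0075 over all features, and 28 were positive and 49 negative. Without adjustment 2 genes, or 2.6%, had p under 0.05 in limma, against 10.7% of all features.

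The sizes of the differences were counted beside those of all features. Of the 77 genes, 56 (72.7%) differed by less than 0.1 and 72 (93.5%) by less than 0.2, where 41.4% and 68.8% of all features did. The median SE was 0.092 against 0.131 over all features, and the SD within a genotype had a median of 0.107 against 0.190, from 0.039 for Mrpl24 to 0.34 for Mrpl50. The 95% interval of the difference lay within 0.5 on either side of 0 for 75 of the 77 genes (97.4%, against 58.7% of all features), and within 1 for all 77. The exceptions at 0.5 were Mrpl1 and Mrpl50. Cytosolic ribosome protein genes, described below, were about as tight, with 97.5% of 81 intervals within 0.5 and a median SE of 0.098. For the genes that work with the mitochondrial ribosome, also below, that share was 87.2%. All features were not matched to the 77 genes for brightness.

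**Figure D1:**
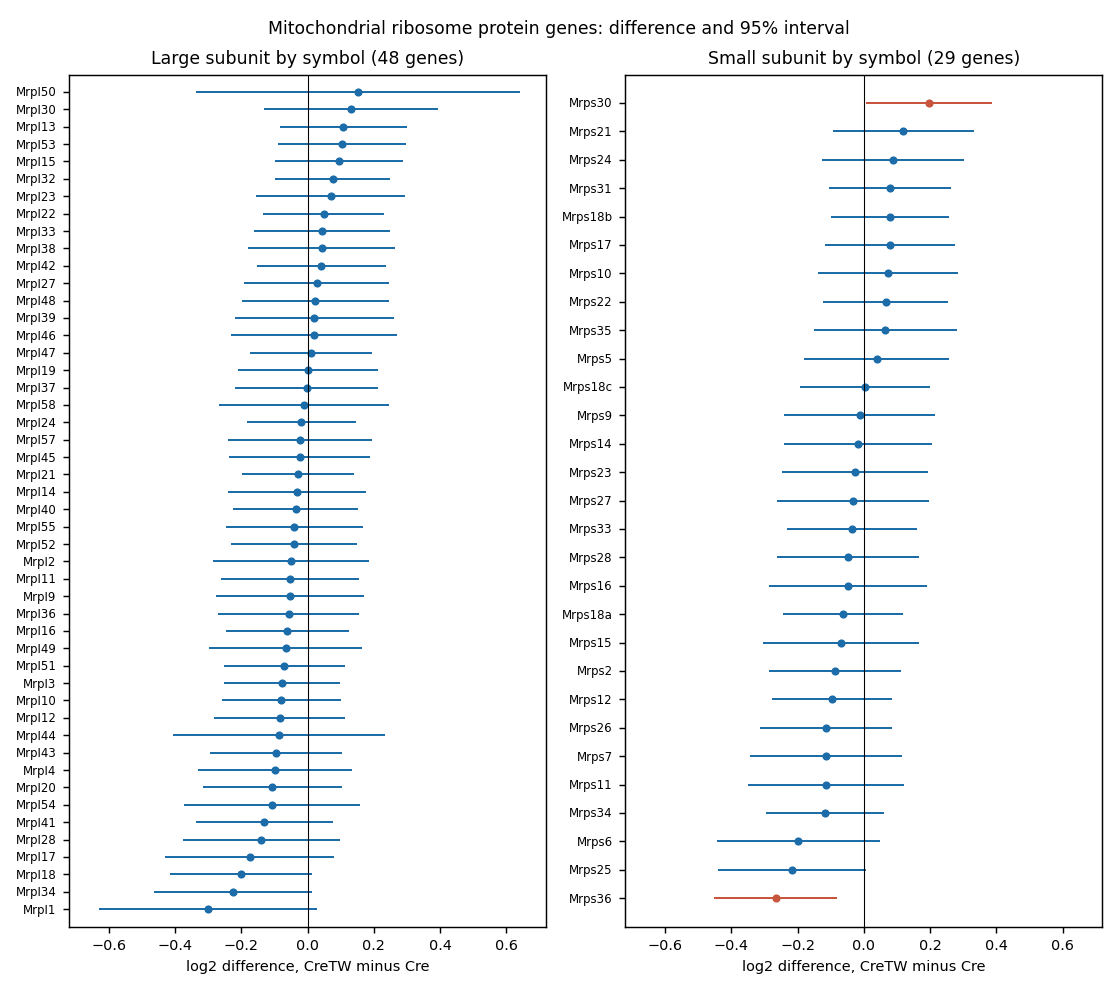
Difference CreTW minus Cre (x axis, log2) with its 95% interval from limma for each of 48 large subunit and 29 small subunit genes, ordered by the difference. Points in red, Mrps30 and Mrps36, are the genes whose 4 CreTW values did not overlap the 4 Cre values; all but 2 intervals lie within 0.5 of 0.

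The groups did not overlap in 2 of the 77 genes (2.6%), 1 higher and 1 lower in CreTW, where 6.7% of all features showed this, 3.89% higher and 2.81% lower. Mrps36 was the one with lower CreTW values. Despite its symbol, its product is known as a subunit that joins the parts of the 2-oxoglutarate dehydrogenase complex of the citric acid cycle and is no longer counted as a ribosome protein. Its level was 2.42, 2.59, 2.38 and 2.43 in Cre replicates 1 to 4 and 2.23, 2.13, 2.16 and 2.24 in CreTW replicates 1 to 4. Every CreTW array thus lay below every Cre array, and Cre replicate 2 was the highest of all. The difference was -0.27 ± 0.080 (95% interval -0.45 to -0.083), 1.20-fold lower, with an adjusted p = 0.292 in limma. Within slide row 1, the position on the slide that held replicates 1 and 2 of both genotypes, it was -0.33, and within row 2, which held replicates 3 and 4, -0.21. After normexp background correction the groups of Mrps36 overlapped.

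Mrps30 was the gene with higher CreTW values. Its product, named as a small subunit protein when it was found, sits in the large subunit in the known structures. Its level was 1.34, 1.32, 1.33 and 1.42 in the Cre replicates and 1.59, 1.46, 1.68 and 1.47 in the CreTW replicates. The 4 Cre arrays lay close together and CreTW replicates 1 and 3 stood highest, without overlap. The difference of 0.20 ± 0.082 (95% interval 0.0096 to 0.39), 1.15-fold, had an adjusted p = 0.448 in limma, and it was 0.20 within each slide row. With arrays scaled to their median the groups of Mrps30 overlapped, and those of Mrps25, Mrps36 and Mrps6 did not.

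**Figure D2:**
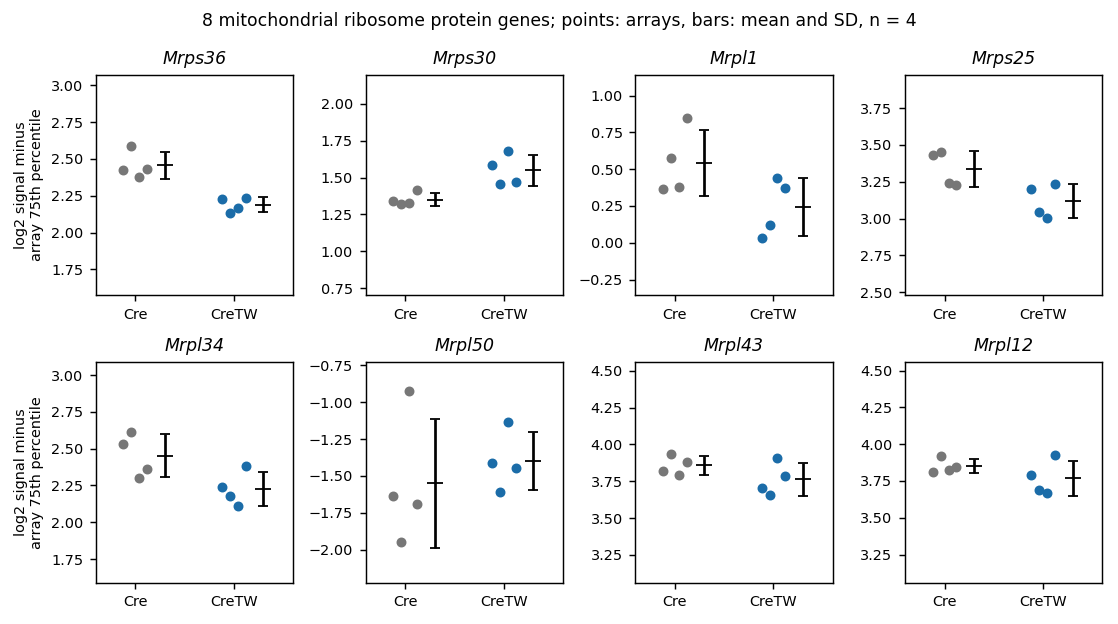
Level of 8 genes (y axis, log2 signal minus the array's 75th percentile, each panel spanning 1.5 units) on 4 Cre (grey) and 4 CreTW (blue) arrays, with mean and SD. The groups are apart for Mrps36 and Mrps30 and overlap for Mrpl1, Mrps25, Mrpl34, Mrpl50, Mrpl43 and Mrpl12.

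Among proteins of the large subunit, Mrpl1, which forms the mobile stalk beside the site where tRNAs leave, had the lowest difference. Its level was 0.37, 0.58, 0.38 and 0.85 in the Cre replicates and 0.030, 0.12, 0.44 and 0.37 in the CreTW replicates. Cre replicate 4 was high and CreTW replicates 1 and 2 low, while CreTW replicate 3 stood above Cre replicates 1 and 3. The difference was -0.30 ± 0.14 (95% interval -0.63 to 0.025, limma adjusted p = 0.501), and a second, dimmer probe of the gene gave -0.19. Without Cre replicate 4 the difference was -0.20.

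Mrpl34, counterpart of a small basic protein of the bacterial large subunit, had levels of 2.53, 2.61, 2.30 and 2.37 in Cre and 2.24, 2.18, 2.11 and 2.38 in CreTW. CreTW replicate 4 lay above Cre replicates 3 and 4, and the difference was -0.23 ± 0.10 (limma adjusted p = 0.482). Mrpl18 belongs to the central protuberance, where it holds a mitochondrial tRNA in place of the RNA found there in bacteria. Its levels were 2.32, 2.32, 2.12 and 2.14 in Cre and 2.03, 1.89, 2.14 and 2.04 in CreTW, a difference of -0.20 ± 0.092. Cre replicates 1 and 2 stood apart from the rest here, and the difference was -0.36 within slide row 1 and -0.041 within row 2. The same held for Mrpl34, with -0.36 and -0.087. Mrpl17, a protein near the exit of the peptide tunnel, differed by -0.17 ± 0.11 with overlapping groups.

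At the other end of the large subunit were Mrpl50, Mrpl30, Mrpl13 and Mrpl53. Mrpl50, a protein without a bacterial counterpart, was the least precise of all the genes. Its levels were -1.64, -1.95, -0.92 and -1.69 in Cre and -1.41, -1.61, -1.14 and -1.45 in CreTW. Cre replicate 3 was the highest of the 8 arrays and Cre replicate 2 the lowest, so the CreTW values fell inside the Cre range, and the difference was 0.15 ± 0.21 (95% interval -0.33 to 0.64). It was 0.018 without Cre replicate 2, 0.064 without CreTW replicate 3 and 0.36 without Cre replicate 3. Mrpl30 and Mrpl13, both with bacterial counterparts, differed by 0.13 ± 0.11 and 0.11 ± 0.083, and Mrpl53, found in mitochondria alone, by 0.10 ± 0.084. None of these 3 had groups that were apart.

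The stalk of the large subunit recruits translation factors. Mrpl12, which forms the flexible arms of the stalk, had levels of 3.81, 3.92, 3.82 and 3.85 in Cre and 3.79, 3.69, 3.67 and 3.92 in CreTW. CreTW replicates 2 and 3 were the low ones and CreTW replicate 4 was the highest of all, with a difference of -0.084 ± 0.085. Mrpl10, which anchors Mrpl12, differed by -0.079 ± 0.078 and Mrpl11 of the stalk base by -0.054 ± 0.090. Mrpl58, a peptidyl-tRNA hydrolase built into the large subunit that releases stalled chains, differed by -0.011 ± 0.11. The 95% intervals of these genes reached from -0.28 to 0.24 at their widest ends.

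In the small subunit, Mrps25, a protein found in mitochondria alone, had levels of 3.43, 3.45, 3.24 and 3.23 in Cre and 3.20, 3.04, 3.0 and 3.24 in CreTW. CreTW replicate 4 lay just above Cre replicate 4, and the other CreTW arrays lay below all Cre arrays. The difference was -0.22 ± 0.097 (limma adjusted p = 0.474). Mrps6, counterpart of a bacterial protein of the subunit's platform, is known to share its promoter and first exon with the inositol transporter gene Slc5a3. Its levels were 3.25, 3.36, 3.34 and 3.64 in Cre and 3.25, 3.21, 3.04 and 3.29 in CreTW, a difference of -0.20 ± 0.11. Cre replicate 4 was high and CreTW replicate 3 low, and CreTW replicate 4 stood above Cre replicate 1. The difference of Mrps6 was -0.12 without Cre replicate 4, -0.076 within slide row 1 and -0.32 within row 2. Mrps34, another protein without a bacterial counterpart, differed by -0.12 ± 0.077, and Mrps12, which lines the decoding centre, by -0.097 ± 0.078.

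After Mrps30 the highest differences of the small subunit were those of Mrps21 (0.12 ± 0.092), Mrps24 (0.089 ± 0.093) and Mrps31 (0.080 ± 0.079). The groups of all 3 overlapped. Mammals carry 3 relatives of the single bacterial S18 protein, of which Mrps18b and Mrps18c sit in the small and Mrps18a in the large subunit. They differed by 0.080 ± 0.077 for Mrps18b, 0.0042 ± 0.085 for Mrps18c and -0.063 ± 0.078 for Mrps18a. The intervals of the 3 reached from -0.24 for Mrps18a to 0.255 for Mrps18b.

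The large and the small subunit gave similar medians. The median difference was -0.034 over 48 large subunit genes (17 positive, 31 negative) and -0.033 over 29 small subunit genes (11 positive, 18 negative). When subunits were taken by structure, with Mrps30 and Mrps18a moved to the large subunit and Mrps36 left out, the medians were -0.034 over 50 and -0.030 over 26 genes. Groups then did not overlap in 1 of the 50 large subunit genes (2%) and in 0 of the 26 small subunit genes, against 6.7% of all features. By origin, the median was -0.050 over 29 large subunit genes with a bacterial counterpart, -0.022 over 21 other large subunit genes, -0.033 over 16 small subunit genes with a counterpart and -0.030 over 10 other small subunit genes. Mrps18a and Mrps18b were counted among those other genes, apart from Mrps18c.

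Per array, the mean over large subunit genes, each set to its own Cre mean, was -0.019, 0.056, -0.073 and 0.035 in Cre replicates 1 to 4 and 0.015, -0.090, -0.045 and -0.012 in CreTW replicates 1 to 4. The same mean over small subunit genes was 0.011, 0.024, -0.070 and 0.035 in Cre and 0.032, -0.076, -0.064 and 0.0001 in CreTW. Both subunits were thus low on the same arrays, Cre replicate 3 and CreTW replicates 2 and 3, and the genotypes overlapped. The difference between the means, large minus small, shifted by -0.0056 from Cre to CreTW, less than its SD within genotypes of 0.021. That shift was -0.016 within slide row 1 and 0.0047 within row 2.

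**Figure D3:**
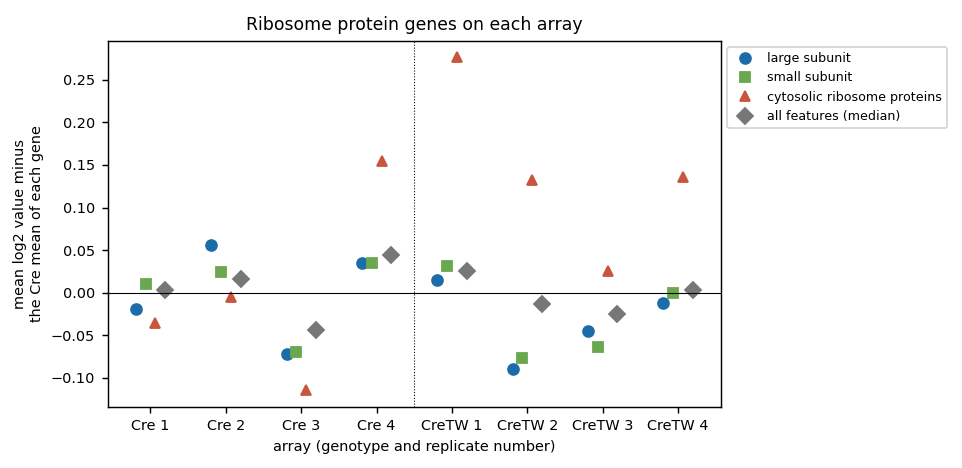
Mean log2 value on each array (y axis, each gene set to its mean over the Cre arrays) of large subunit genes, small subunit genes and cytosolic ribosome protein genes, with the median of all features. The large and small subunit points stay within 0.09 of 0 and move together, while the cytosolic points reach 0.276 on CreTW replicate 1.

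Many of the genes were high or low on the same arrays, and all features leaned the same way to a smaller extent. On Cre replicate 3, 60 of the 77 genes (77.9%) lay below their own mean over the 8 arrays, as did 58.8% of all features. On CreTW replicate 2 it was also 60, with 52.5% of all features, and on CreTW replicate 3 it was 47 (61%), with 53.7%. At the other end were Cre replicate 2 with 21 genes (27.3%, against 46.2% of all features), Cre replicate 4 with 25 (32.5% against 43.1%) and CreTW replicate 1 with 27 (35.1% against 43.2%). Single genes departed from this pattern. On Cre replicate 3 Mrpl50 stood 0.55 above its mean, and on CreTW replicate 1 Mrpl46, named after its values were seen, stood 0.29 above its own.

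**Figure D4:**
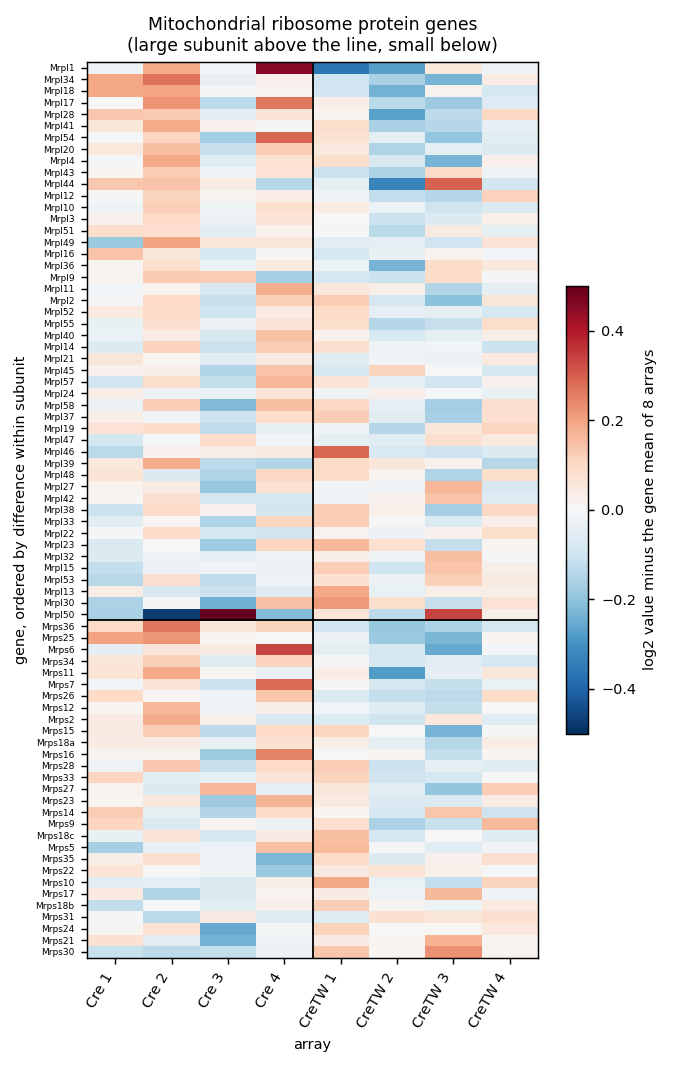
Log2 value of each of the 77 genes minus its mean over the 8 arrays (colour, from -0.5 to 0.5) for Cre and CreTW replicates 1 to 4, with large subunit genes above the horizontal line and small subunit genes below it. Columns Cre 3 and CreTW 2 are mostly blue, with 60 genes below their mean on each, and Cre 2 is mostly red, with 21.

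Markers of neighbouring tissues differed between the arrays. All 15 skeletal muscle markers were measured, 8 of them above background on every array, and the log2 of their summed level ran from 4.98 to 6.66 in Cre and from 5.47 to 9.37 in CreTW. Their mean score, set to the Cre mean, was highest on CreTW replicates 2, 3 and 4 (5.19, 4.70 and 3.69) and next on Cre replicate 3 (2.16). The mean over the 77 ribosome genes on these arrays was -0.085, -0.052, -0.0073 and -0.071, and it was highest, 0.044, on Cre replicate 2, where the muscle score was lowest (-1.33). With the muscle score as a covariate the median difference of the 77 genes was 0.071 in place of -0.033, with 54 positive and 23 negative, while the median of all features moved to 0.044. Again 0 of the 77 passed the test in limma, where this fit called 4 of 23105 features. Without adjustment 0 of the 77 had p under 0.05 in limma, against 5.43% of all features in this fit. As the score itself leaned with genotype, this fit cannot tell muscle content and genotype apart, and the part of muscle was not tested. The 10 markers of perichondrium, tendon and fibroblasts had a mean score of -0.40 to 0.29 in Cre and 0.32 to 0.59 in CreTW. Scores of the other sets overlapped. Chondrocyte markers had -0.40 to 0.53 in Cre and -0.51 to 0.075 in CreTW, and hypertrophic ones -0.18 to 0.15 and -0.58 to 0.11. Osteoclast markers had -1.06 to 0.47 and -1.91 to 0.0050, and erythroid ones -0.75 to 0.42 and -1.29 to 0.089. Endothelial markers had -0.48 to 0.19 and -0.55 to 0.34, and marrow leukocyte ones -1.54 to 1.75 and -1.06 to 0.49. The part of these tissues in the results was not tested.

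Genes that work with the mitochondrial ribosome gave 0 calls as well, where 0.346% of all features were called. Of 49 such genes 47 were measured, all but Nsun3 and Mtrfr, and 1 (2.13%) had unadjusted p under 0.05 in limma, against 10.7% of all features. Groups did not overlap in 2 of the 47 (4.26%, against 6.7% of all features), both in the list of translation factors below. The 5 ribosome proteins with other symbols had a median difference of -0.028, from -0.11 ± 0.086 for Ptcd3, a pentatricopeptide protein of the small subunit, to 0.20 ± 0.097 for Chchd1. The 26 measured assembly factors had a median of 0.0012, from -0.42 ± 0.24 for Mettl17, a dim gene, to 0.16 ± 0.090 for the rRNA methyltransferase Mrm1. The value of Mettl17 was -0.24 without Cre replicate 3, as without CreTW replicate 3, -0.096 after normexp correction and -0.93 within slide row 2. The 16 measured genes of the translation factor list, which also holds genes of other roles (Mief1, Lrpprc), had a median of -0.072. In this list the groups did not overlap for 2 genes (12.5%, against 6.7% of all features), both lower in CreTW (2.81% of all features). Tufm, the elongation factor that brings tRNAs to the ribosome, had levels of 3.14, 3.33, 3.23 and 3.05 in Cre and 2.95, 2.95, 2.96 and 3.01 in CreTW. All 4 CreTW values lay within a narrow span just under Cre replicate 4, with a difference of -0.22 ± 0.084 (limma adjusted p = 0.424). Mief1, whose transcript also encodes a microprotein of mitochondrial ribosome assembly upstream of the main reading frame, was named after its values were seen and differed by -0.15 ± 0.074. The highest of the list was Lrpprc, an RNA-binding protein that stabilises mitochondrial mRNAs, at 0.23 ± 0.15, or 0.13 without either Cre replicate 4 or CreTW replicate 3.

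The cytosolic ribosome offers a comparison of like gene families measured in the same way. Of 84 cytosolic ribosome protein genes taken by symbol 81 were measured, and 0 passed the test in limma, against 0.346% of all features. Without adjustment 11 (13.6%) had p under 0.05 in limma, against 10.7% of all features. Their differences were positive in 80 genes, with a median of 0.15 against -0.033 for the mitochondrial ones. The number of positive differences was 74 after quantile normalization, 60 within slide row 2 and 76 without CreTW replicate 1. The groups did not overlap in 11 (13.6%, against 6.7% of all features), all with higher CreTW values (3.89% of all features). The highest was Rpl17 at 0.30 ± 0.090, and the only negative one was Rpl7l1 at -0.19 ± 0.13, both named after their values were seen. The list was meant to leave out genes named as like a ribosome protein, but the choice by symbol let such names pass. Rpl7l1 is an example, and how many more the list holds was not counted. Over the alternatives the cytosolic median ran from 0.054 to 0.31; it was 0.085 after quantile normalization, 0.22 within slide row 1, 0.054 within row 2 and 0.31 with the muscle covariate. Per array the cytosolic mean was -0.035, -0.0052, -0.11 and 0.15 in Cre and 0.28, 0.13, 0.026 and 0.14 in CreTW. Cre replicate 4 lay above 3 of the 4 CreTW arrays, so the genotypes overlapped in this mean. The difference of the families' medians was not tested.

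**Figure D5:**
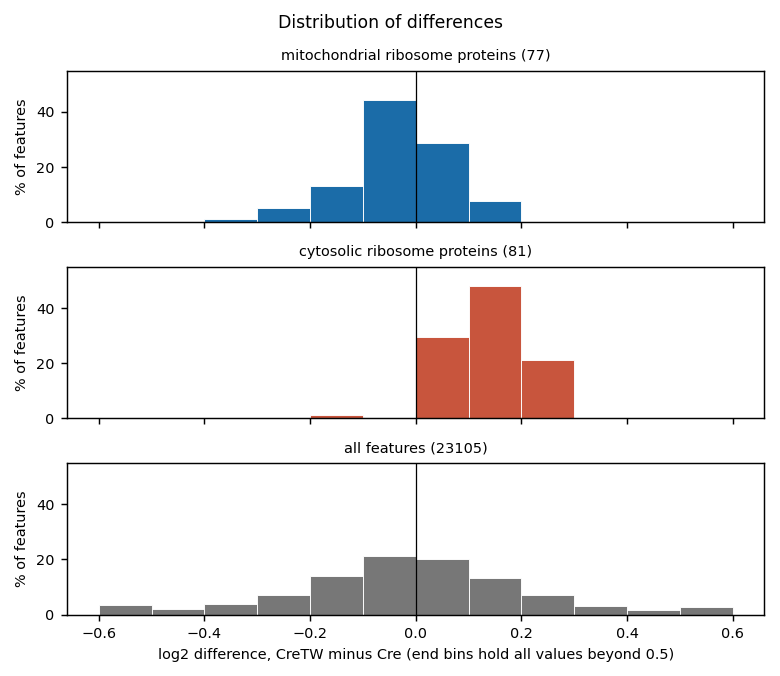
Share of features (y axis, percent) by difference CreTW minus Cre (x axis, log2, bins of 0.1) for 77 mitochondrial and 81 cytosolic ribosome protein genes and all 23105 features. Of the mitochondrial genes 72.7% lie within 0.1 of 0, while 48.1% of the cytosolic genes lie between 0.1 and 0.2.

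Median differences were set side by side for genes with and without a promoter motif. The median was -0.033 for 25 measured genes with the ETS core and -0.036 for 43 without, -0.024 for 13 with the NRF1 motif and -0.036 for 55 without, and -0.058 for 11 with the YY1 motif and -0.032 for 57 without. For SP1 it was -0.036 for 34 with and -0.031 for 34 without, and for the CCAAT box -0.050 for 27 with and -0.032 for 41 without. These gaps were not tested, and TATAAA and the C/EBP-ATF element were not compared. Another trait more frequent here than in all promoters was position. In 24 of the 69 promoters (34.8%, against 8.04% of all promoters) another gene started on the opposite strand within 1000 bases. Mrpl46 and Mrps11 form such a pair with each other, at 0.018 ± 0.11 and -0.11 ± 0.10. The 22 neighbours outside the set were all measured, and 0 passed the test in limma, against 0.346% of all features. Their differences ran from -0.25 for the helicase gene Helq, beside Mrps18c, to 0.17 for Fau, beside Mrpl49. Groups did not overlap for 1 of them (4.55%, against 6.7% of all features), Ppp1r10, a regulatory subunit of protein phosphatase and the neighbour of Mrps18b, at -0.25 ± 0.095. These neighbours were named after their values were seen.

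One neighbour is the gene this mouse model concerns. Mrpl43, a large subunit protein found in mitochondria alone, starts head to head with Twnk, the gene of Twinkle. Mrpl43 had levels of 3.82, 3.94, 3.79 and 3.88 in Cre and 3.71, 3.66, 3.91 and 3.79 in CreTW, with a difference of -0.095 ± 0.086. CreTW replicates 1 and 2 were the lowest and CreTW replicate 3 lay among the highest. The probe of Twnk was dim, above background on 4 of 4 Cre and 3 of 4 CreTW arrays. It gave -2.26, -2.28, -2.16 and -1.85 in Cre and -2.58, -2.64, -1.85 and -1.89 in CreTW, a difference of -0.10 ± 0.21 (limma adjusted p = 0.890). Replicates 1 and 2 of CreTW were low and its replicates 3 and 4 level with the highest Cre array, so the groups overlapped. The labels do not say whether the transgene's transcript holds this probe's sequence.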

How the data were processed

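Total RNA of growth plate cartilage, 100 ng per mouse, was hybridised to 1-colour (Cy3) Agilent 8x60K arrays, per the labels. Scans were turned into intensity values by the authors, per the file headers with version 11.5.1.1 of Agilent's Feature Extraction and probes placed on mm9. The processed intensity, from which background is subtracted, was used here. GeneSpring 14.9 was used by the authors, per the labels. The authors' deposited table of log2 values matched the log2 processed intensities up to 1 constant for each array, with r = 1 on all 8. Single probes departed from that constant by at most 0.0781 to 0.487 on the log2 scale, depending on the array. Its column medians lay between -3.03 and -2.93, so genes were not centred, and it served as an alternative.

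Spots of a probe were averaged without outlier-flagged ones, and the 75th percentile of the array (control probes left out) was subtracted on the log2 scale. Probes passing the software's background call on 4 or more of the 8 arrays were kept, 1 per gene (highest mean), and named through RefSeq transcripts (GRCm38.p6, names and promoter sequences alone): of 56605 probes 32994 matched 1 symbol and 23611 none. Of 23105 features, 14127 had a symbol. Genotypes were compared with limma 3.58.1 under R 4.3.3, using lmFit and eBayes and adjusting p-values by Benjamini-Hochberg over all features, at a threshold of 0.05 and with 6 residual and 2.52 prior degrees of freedom. The number of arrays limits the precision.

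The genes and lists were chosen with earlier results of these data known. Named were the genes passing the test, the 4 highest and 4 lowest differences of each subunit, genes whose groups did not overlap, 11 genes chosen by role (Mrps18a, Mrps18b, Mrps18c, Mrps30, Mrps36, Mrpl12, Mrpl10, Mrpl11, Mrps12, Mrpl58 and Mrps6), genes near the background limit, genes with probes of opposite sign over 0.3 apart (0 found) and the extremes of each partner list. Mrpl24, Mrpl43 and Mrpl46 were named after their values were seen. Of 21 genes with several probes, 9 had probes of opposite sign, and the largest gap was 0.278, in Mrps9. Other scalings, background correction, filters, probe averaging, blocks, a moderated-variance option, a muscle covariate and single arrays left out were tried as alternatives. Normexp (offset 50) was run on median signals.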

Additional observations from a re-analysis of the deposited data

Results flagged for a closer look

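In 3 of 74 groups of 4 arrays examined (genes named above and per-array means), 1 array stood far from the other 3 for their range, a pattern that chance gives in about 1 of 20 groups. In Mrps31, CreTW replicate 1 lay at 1.36 and the other CreTW arrays between 1.48 and 1.501. In the mean of the large minus the small subunit, CreTW replicate 3 lay at 0.019 and the other CreTW arrays between -0.016 and -0.012. With subunits taken by structure, it lay at 0.0258 and the others between -0.016 and -0.012.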

How the results depend on the processing

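Over 13 alternatives and 8 fits that left out 1 array each, 0 genes of the mitochondrial ribosome and 0 partner genes passed the test in limma, and the lowest adjusted p of a ribosome gene was 0.188, with trend and robust estimation. The labels state no pairing of mice by replicate number. After genotype means were removed, correlations of same-numbered arrays were -0.0123, -0.10, 0.31 and -0.03, too few values to settle whether mice were paired. With the number as a replicate block 0 ribosome genes and 12 features in all were called. Against 80 features called in all, there were 111 with normexp correction, 115 with trend and robust estimation, 27 without a filter on dim probes, 53 with slide row as a block, 0 within slide row 1, 0 within row 2, 4 with the muscle covariate and 42 to 75 without single arrays. Ribosome genes without overlap numbered 4 after quantile normalization (5.19%, against 7.77% of all features). They numbered 33 within row 1 (42.9%, against 48.5% of all features) and 19 within row 2 (24.7%, against 32.4%). Without single arrays they numbered 2 to 8 (2.6% to 10.4%), and the share of all features ran from 7.89% to 15.6%. The 10.4% came without Cre replicate 3, where all features gave 10.1%. The 15.6% of all features came without Cre replicate 4, where the ribosome genes gave 3.9%. With the muscle covariate the medians were 0.071 for all 77 genes, 0.066 for the large and 0.071 for the small subunit. Without single arrays they ran from -0.068 to -0.016, from -0.067 to -0.015 and from -0.070 to -0.0071, and large minus small from -0.015 to 0.0050.

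Of the 77 differences, 32 changed sign with the muscle covariate, 12 within slide row 1, 16 within row 2 and at most 12 in any other fit. Among the 24 named ribosome genes and 6 named partners, signs turned in 20 values, none of them called, and the cause was not tested. With the muscle covariate these were Mrpl10 (0.016), Mrpl11 (0.050), Mrpl17 (0.053), Mrpl50 (-0.21), Mrpl58 (0.22), Mrps18a (0.031) and Mrps31 (-0.047). Within slide row 1 they were Mrpl11 (0.040), Lrpprc (-0.011) and Mettl17 (0.092). Mrps18c gave -0.0072 with the array median, -0.0032 with the mean of probes and -0.0098 within row 2. Without single arrays Mrps18c ran from -0.045 to 0.033 and Mrpl58 from -0.087 to 0.043. Mettl17 has no value with the filter on all 8 arrays.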
